A study of Ogataea parapolymorpha DL-1 with 4 samples.

Results

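Permeases are the membrane carriers through which a yeast cell takes up amino acids, purines and other nitrogen sources or moves amino acids across the vacuolar membrane. In budding yeast their genes are controlled by nitrogen-responsive GATA factors and by a sensor of external amino acids, and the proteins are sorted to the plasma membrane or removed from it by kinases, arrestins and the ubiquitin ligase Rsp5. Cysteine and methionine, which carry sulfur as well as nitrogen, also enter the cell through amino acid permeases. In Ogataea parapolymorpha, a methylotrophic yeast, 65 of 5448 rows of the transcript table were taken here, all rows whose product holds "permease" or "amino acid transporter", without sulfate, iron, maltose and lactose carriers and without MUP3. A minimum of 1 FPKM for the mean of a row over the libraries left 5342 rows and all 65 members. The lowest member, a DAL4 row (HPODL_03774), had a mean of 1.06 FPKM, and no member lay below the limit.

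The libraries came from strain DL-1 with a leu2 background. The mutant genotype is given as leu2 met4::LEU2, a disruption of MET4, which activates sulfur assimilation genes in budding yeast, and the wild-type genotype as leu2 [LEU2]. Both strains were grown in YPD to an OD600 of 0.3 and then kept for 2 h in sulfur-limited B medium or in the same medium with 0.5 mM cysteine. Each group is thus 1 library: met4 mutant in B medium, met4 mutant with cysteine, wild type in B medium and wild type with cysteine. With 1 library a group there is no replicate error, no test was made, and every difference is a description of these libraries. Values are FPKM as deposited, a unit that corrects for transcript length and library size, and differences are of log2(FPKM + 1), which understates those of low genes. A difference of 2-fold or more on that scale was counted. The number of reads behind a value is unknown.

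The row zip1 (HPODL_03459), read as the MET4 counterpart, was listed at 0 FPKM in both mutant libraries, against 485 FPKM in wild-type B medium and 202 FPKM in the wild type with cysteine. The adjoining row HPODL_05198 likewise stood at 0 in the mutant, against 2343 and 2757 FPKM in the wild type, so strain differences cannot be assigned to zip1 alone. Rows under 400 bases held 24.5% and 19.4% of all FPKM in the mutant libraries (B medium, then cysteine), against 56.2% and 48.2% in the wild-type ones. The members are longer than most rows, with a median span of 1653 bases against 1200 bases over all rows compared. Over all rows the median difference between B medium and cysteine was 0.04 in the mutant and 0.19 in the wild type, and between mutant and wild type it was -0.27 in B medium and -0.10 with cysteine. In that order of comparisons, the shift of these medians was -0.08, -0.46, 1.16 and 0.78 when all libraries were brought to one sum (TPM). It was -0.05, -0.19, 0.25 and 0.10 for median-of-ratios, 0.05, -0.06, 0.30 and 0.19 for the upper quartile, and 0.10, -0.08, 0.23 and 0.05 for the total of genes of 600 bases or more. Member differences are therefore read against the median of all rows.

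Names in the table are those of the most similar protein of another organism, so substrates of the Ogataea proteins were not measured. By these names, 48 rows are carriers of amino acids or nitrogen sources or have no described substrate. They are 4 DIP5 rows, 8 general amino acid permeases, 2 basic, 2 proline and 3 GABA permeases, 3 amino acid permeases of unknown substrate, 13 vacuolar transporters, 10 carriers of purines, pyrimidines, allantoin or allantoate, and 3 permeases with no described substrate. The other 17 rows were taken by the wording of their product: 6 sugar, quinate and phosphate permeases, 7 ABC transporters and 4 regulatory or sorting proteins. Among the 65 rows, 39 share their name with another member, and reads of close copies can be split between them.

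In the met4 mutant, 14 of the 65 members were at least 2-fold higher in B medium than with cysteine and 10 at least 2-fold lower. These are 21.5% and 15.4% of the members, against a background over all rows of 13.3% and 12.1%, and the median difference of the members was 0.25. In the wild type 28 members were higher and 10 lower, or 43.1% and 15.4%, against a background of 23.6% and 13.0%, and the median was 0.70. Of the 48 carriers, 12 were higher and 7 lower in mutant B medium, with a median of 0.20, and 22 were higher and 7 lower in wild-type B medium, with a median of 0.91. Wild-type B medium was the highest library for 26 members (40.0%), close to the 41.4% of all rows, and the wild type with cysteine was highest for 7 (10.8%), against 21.4% of all rows. The balance of higher and lower members in the mutant shifted to 16 against 6 with upper-quartile scaling, where 14.5% of all rows were higher and 11.4% lower. It was 17 against 5 when the total of genes of 600 bases or more set the scale (15.4% and 10.7% of all rows). In the wild type it shifted to 19 against 12 with median-of-ratios (19.5% and 15.9% of all rows) and to 18 against 14 with TPM scaling (14.8% and 21.9%).

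The acidic amino acid permeases include the 2 members with the widest range over the libraries. Dip5 is the glutamate and aspartate permease of budding yeast, and 4 rows carry its name. DIP5 HPODL_00008 (chromosome I, 14428 to 16062) had 10.6 and 4.53 FPKM in the mutant (B medium, then cysteine), against 179 and 1.18 FPKM in the wild type. DIP5 HPODL_03243 (chromosome VII, 1512935 to 1514587) had 40.1 and 14.1 FPKM in the mutant, against 307 and 3.35 FPKM in the wild type. Both were low in the wild type with cysteine and high in wild-type B medium, with the mutant libraries between. DIP5 HPODL_04534 (chromosome II, 20345 to 21988) had 13.0 and 15.7 FPKM in the mutant, against 223 and 25.7 FPKM in the wild type. DIP5 HPODL_03528 (chromosome IV, 895722 to 897437) had 157 and 71.4 FPKM in the mutant, against 456 and 73.1 FPKM in the wild type. Wild-type B medium was the highest library for all 4 rows.

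In the order given, the differences between B medium and cysteine were 1.08, 1.44, -0.25 and 1.13 in the mutant, against 6.37, 6.14, 3.07 and 2.63 in the wild type. Relative to the wild type, the mutant in B medium lay lower by log2 differences of -3.95, -2.91, -4.00 and -1.53. With cysteine the differences of the strains were 1.34, 1.80, -0.68 and -0.03, so HPODL_00008 and HPODL_03243 were lower in the mutant in B medium and higher in the mutant with cysteine. The B medium differences between strains kept their sign under the 4 scalings and with the length trend removed, and HPODL_03528 was within 2-fold with TPM scaling (-0.34). Summed over the 4 rows, DIP5 reached 221 and 106 FPKM in the mutant, against 1164 and 103 FPKM in the wild type. That sum was 6.64% and 2.99% of the summed FPKM of the 48 carriers in the mutant, against 20.6% and 3.07% in the wild type.

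**Figure D1:**
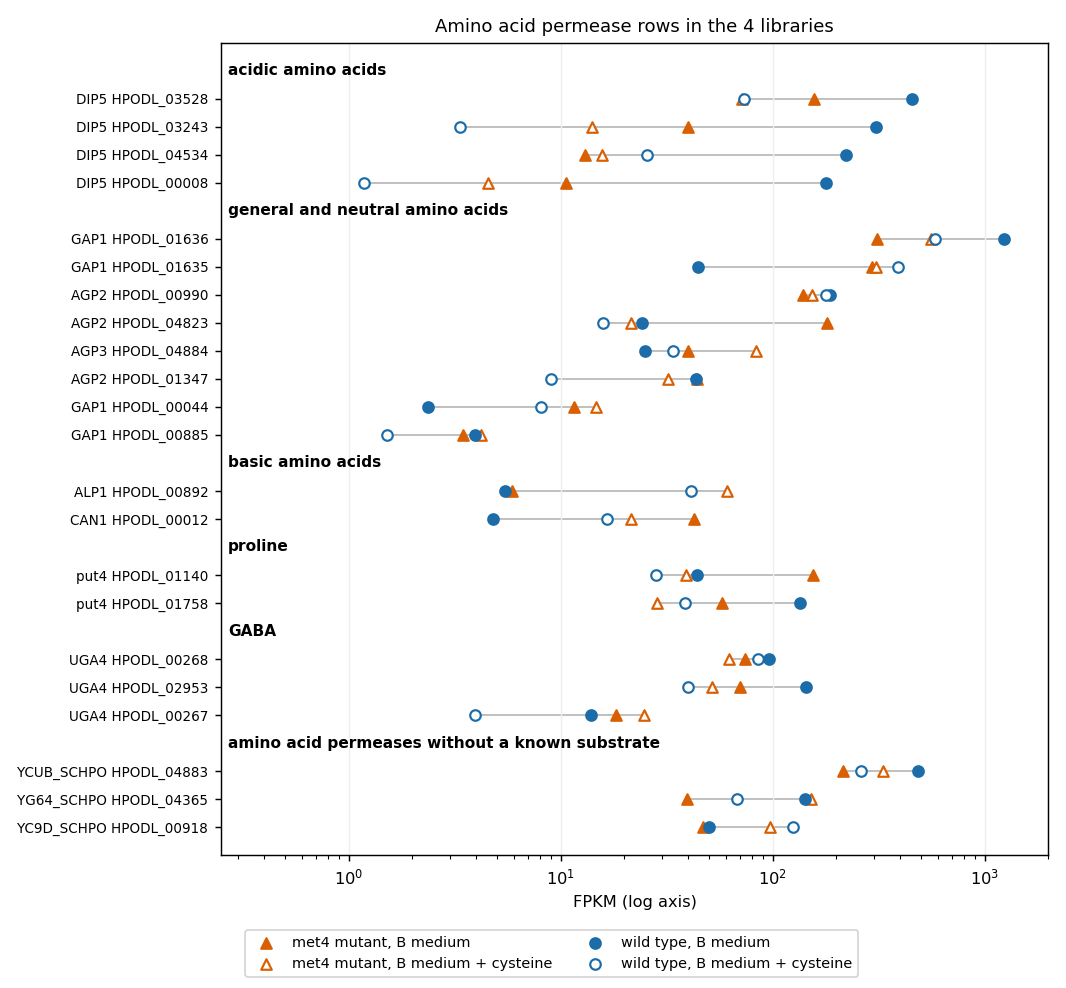
FPKM (log axis) of the 22 amino acid permease rows other than vacuolar ones, by substrate of the namesake protein, with 1 symbol for each of the 4 libraries and a line over their range. The filled blue circle (wild type, B medium) stands to the right of the other symbols in all 4 DIP5 rows, at 179 to 456 FPKM, and to the left of them in GAP1 HPODL_01635, at 44.4 FPKM.

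Among the general amino acid permeases, the most abundant rows were a pair of neighbouring GAP1 genes on chromosome VI that differed in opposite directions. Gap1 takes up most amino acids in budding yeast growing on poor nitrogen sources. GAP1 HPODL_01636 (889643 to 891373) had 309.8 and 561 FPKM in the mutant, against 1232 and 585 FPKM in the wild type. GAP1 HPODL_01635 (887467 to 889209), 433 bases away on the same strand, had 296 and 309 FPKM in the mutant, against 44.4 and 389 FPKM in the wild type. The first row was thus highest and the second lowest in wild-type B medium. Their differences between the media were -0.85 and -0.06 in the mutant, against 1.07 and -3.10 in the wild type. HPODL_01635 made up 48.8% and 35.5% of the pair's FPKM in the mutant, against 3.48% and 39.9% in the wild type. The sum of the pair was 606 and 869.7 FPKM in the mutant, against 1276 and 974 FPKM in the wild type. The positive wild-type difference of HPODL_01636 was below 2-fold under 4 of the 5 settings that rescale the libraries or remove the length trend, with a lowest value of 0.60.

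The other GAP1 rows were low. GAP1 HPODL_00044 had 11.6 and 14.7 FPKM in the mutant, against 2.36 and 8.11 FPKM in the wild type. GAP1 HPODL_00885 had 3.47 and 4.21 FPKM in the mutant, against 3.94 and 1.51 FPKM in the wild type. AGP2, named for a budding yeast protein of carnitine and polyamine uptake, has 3 rows with different patterns. AGP2 HPODL_04823 had 180.4 and 21.5 FPKM in the mutant, against 24.2 and 15.9 FPKM in the wild type, so mutant B medium stood alone. AGP2 HPODL_01347 had 43.9 and 32.1 FPKM in the mutant, against 43.5 and 8.99 FPKM in the wild type, with the low value in the wild type with cysteine. AGP2 HPODL_00990 was almost level, at 139.6 and 154 FPKM in the mutant, against 186 and 179 FPKM in the wild type. AGP3 HPODL_04884 had 39.9 and 83.2 FPKM in the mutant, against 25.1 and 33.7 FPKM in the wild type. The mutant was thus higher in each medium, by 0.65 in B medium and past 2-fold with cysteine (1.28).

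Both basic amino acid permeases had their lowest value in wild-type B medium. ALP1 HPODL_00892, named for an arginine permease homolog, had 5.92 and 60.7 FPKM in the mutant, against 5.44 and 41.2 FPKM in the wild type. It was lower in B medium by similar amounts in both strains (-3.16 in the mutant, -2.71 in the wild type). CAN1 HPODL_00012, named for the arginine permease, had 42.8 and 21.6 FPKM in the mutant, against 4.79 and 16.5 FPKM in the wild type. The difference of CAN1 between the media was 0.96 in the mutant, just inside 2-fold, against -1.59 in the wild type.

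The proline permeases, named put4, differed in their highest library. HPODL_01140 had 155 and 38.9 FPKM in the mutant, against 44.1 and 28.0 FPKM in the wild type. HPODL_01758 had 57.9 and 28.6 FPKM in the mutant, against 135 and 38.7 FPKM in the wild type. In each row B medium was higher than cysteine in both strains, but the highest library was mutant B medium in the first and wild-type B medium in the second. The strain difference of HPODL_01758 in B medium (-1.20) stayed 2-fold under 1 of 5 settings that rescale libraries or remove the length trend. It became as small as -0.03. Of the 3 UGA4 rows, named for the GABA permease, HPODL_02953 had 69.9 and 51.7 FPKM in the mutant, against 143 and 39.7 FPKM in the wild type. UGA4 HPODL_00267 had 18.2 and 24.7 FPKM in the mutant, against 13.9 and 3.96 FPKM in the wild type, which made it 2.37 higher in the mutant with cysteine. Its neighbour 255 bases away, UGA4 HPODL_00268, stayed within 2-fold in each comparison, at 73.8 and 62.3 FPKM in the mutant, against 96.4 and 85.0 FPKM in the wild type.

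A further 3 amino acid permeases are named only for uncharacterized fission yeast proteins. YCUB_SCHPO HPODL_04883 had 215 and 333 FPKM in the mutant, against 483 and 260.3 FPKM in the wild type, and its strain difference in B medium (-1.16) became 0.03 with TPM scaling. YG64_SCHPO HPODL_04365 had 39.7 and 151 FPKM in the mutant, against 142 and 68.0 FPKM in the wild type. That row was at least 2-fold lower in B medium in the mutant (-1.91) and just over 2-fold higher in the wild type (1.05), the only member with opposite 2-fold differences in the strains. The wild-type difference of YG64_SCHPO HPODL_04365 was inside 2-fold under each rescaling, with a lowest value of 0.58. YC9D_SCHPO HPODL_00918 had 47.0 and 97.4 FPKM in the mutant, against 49.9 and 125 FPKM in the wild type, lower in B medium in both.

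Vacuolar transporters move amino acids into or out of the yeast vacuole, where basic amino acids in particular are stored. Of the 13 rows, 4 were at least 2-fold higher and 0 lower in mutant B medium, and 6 were higher and 1 lower in wild-type B medium. The shares of all rows were 13.3% and 12.1% in the mutant and 23.6% and 13.0% in the wild type. VBA5 HPODL_00920, named for a member of the basic amino acid transporter family of budding yeast, had 80.2 and 149 FPKM in the mutant, against 26.0 and 234 FPKM in the wild type, the only lower one. AVT6 HPODL_01317, named for an exporter of acidic amino acids from the vacuole, had 37.4 and 33.4 FPKM in the mutant, against 55.1 and 11.0 FPKM in the wild type. The low value of that row was in the wild type with cysteine. YPQ2 HPODL_05264, of the basic amino acid carriers with PQ loops, had 14.9 and 5.73 FPKM in the mutant, against 14.0 and 0.944 FPKM in the wild type. AVT4 HPODL_02812, named for an exporter of neutral amino acids, had 196 and 82.6 FPKM in the mutant, against 73.8 and 93.5 FPKM in the wild type, with mutant B medium alone on top. RTC2 HPODL_00750 stayed within 2-fold, at 80.0 and 123 FPKM in the mutant, against 136 and 97.1 FPKM in the wild type. The remaining 8 vacuolar rows had differences between -0.74 and 1.36 in the medium comparisons of both strains.

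Among carriers of purines, pyrimidines and their breakdown products, 2 of 10 rows were at least 2-fold higher and 2 lower in mutant B medium, and 5 were higher and 0 lower in wild-type B medium, beside the same shares of all rows as above. DAL4 HPODL_02179, named for the allantoin permease, had 80.3 and 96.9 FPKM in the mutant, against 429 and 148 FPKM in the wild type. FCY2 HPODL_01935, named for the purine and cytosine permease, had 72.4 and 97.6 FPKM in the mutant, against 278 and 137 FPKM in the wild type. Both rows were highest in wild-type B medium and lower in the mutant there, by -2.40 and -1.92, values that became -1.22 and -0.74 with TPM scaling. The wild-type difference of FCY2 (1.02) was inside 2-fold under every rescaling, with a lowest value of 0.54. DAL5 HPODL_02255, named for the allantoate permease, had 8.12 and 2.89 FPKM in the mutant, against 19.7 and 3.44 FPKM in the wild type. DAL4 HPODL_05056 ran the other way between the media, at 119 and 259.5 FPKM in the mutant, against 126 and 215 FPKM in the wild type. Over the class, mutant B medium was at least 2-fold lower than wild-type B medium in 4 rows and higher in 2, against 24.9% and 10.5% of all rows.

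The 3 permeases without a described substrate spread widely for their low level. YHD5_SCHPO HPODL_01973 had 58.7 and 49.1 FPKM in the mutant, against 7.04 and 25.5 FPKM in the wild type, so both mutant libraries lay above both wild-type ones. YEME_SCHPO HPODL_03759 had 12.2 and 4.31 FPKM in the mutant, against 40.6 and 1.39 FPKM in the wild type, the same order of libraries as DIP5 HPODL_00008 and HPODL_03243. YEME_SCHPO HPODL_04532 had 5.47 and 13.7 FPKM in the mutant, against 5.76 and 2.54 FPKM in the wild type.

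**Figure D2:**
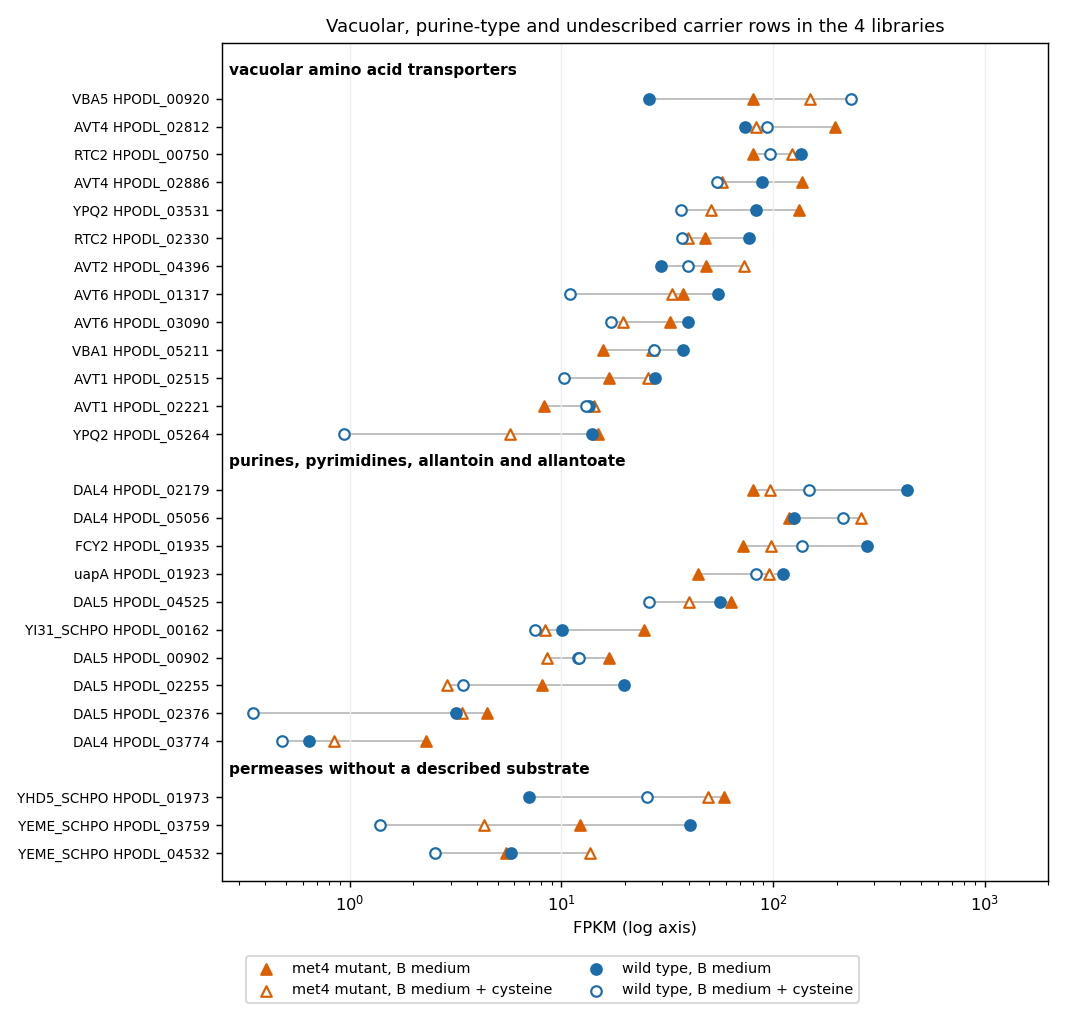
FPKM (log axis) of the 26 vacuolar, purine-type and undescribed carrier rows, with 1 symbol for each of the 4 libraries and a line over their range. DAL4 HPODL_02179 and FCY2 HPODL_01935 have wild-type B medium on top, at 429 and 278 FPKM, and VBA5 HPODL_00920 has it at the bottom, at 26.0 FPKM.

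Among the 17 other rows, those of sugar, quinate and phosphate permeases stayed within 4-fold over the 4 libraries on the log2(FPKM + 1) scale. Of these, sut1 HPODL_05009, named for a sucrose transporter, had 31.4 and 65.3 FPKM in the mutant, against 32.7 and 58.1 FPKM in the wild type. YBT1 HPODL_02289, named for a vacuolar ABC transporter of bile acids, had 191 and 26.1 FPKM in the mutant, against 60.4 and 35.8 FPKM in the wild type. YOR1 HPODL_04463, named for a drug exporter, had 19.2 and 39.5 FPKM in the mutant, against 16.4 and 79.4 FPKM in the wild type. Mutant B medium stood alone on top for YBT1, and YOR1 was lower in B medium in both strains. Of the regulatory rows, NPR1, the kinase that keeps Gap1 active in budding yeast, had 64.8 and 36.5 FPKM in the mutant, against 76.3 and 19.7 FPKM in the wild type. NPR3, a subunit of a complex that restrains TORC1, was low at 10.9 and 7.73 FPKM in the mutant, against 7.87 FPKM in wild-type B medium, and was lower still in the wild type with cysteine. NPR2 of the same complex and the sorting protein STP22 stayed within 2-fold in each comparison of a pair of libraries.

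Setting the media differences of the strains side by side, which share no library, 7 of the 28 members higher in wild-type B medium were also at least 2-fold higher in mutant B medium, 20 were within 2-fold there and 1 was lower. Over all rows, 355 of 1259 were also higher, 866 within 2-fold and 38 lower. Of the 10 members lower in wild-type B medium, 4 were also lower in the mutant, 6 were within 2-fold and 0 were higher. Over all rows, 366 of 692 were also lower, 305 within 2-fold and 21 higher. Subtracting the wild-type medium difference from that of the mutant gave a value of at least 2-fold above 0 in 13 members and at least 2-fold below 0 in 24 (36.9%), with a median of -0.45. The background over all rows was 11.2% above and 22.2% below, with a median of -0.20. Among carriers alone these counts were 9 and 22 of 48.

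**Figure D3:**
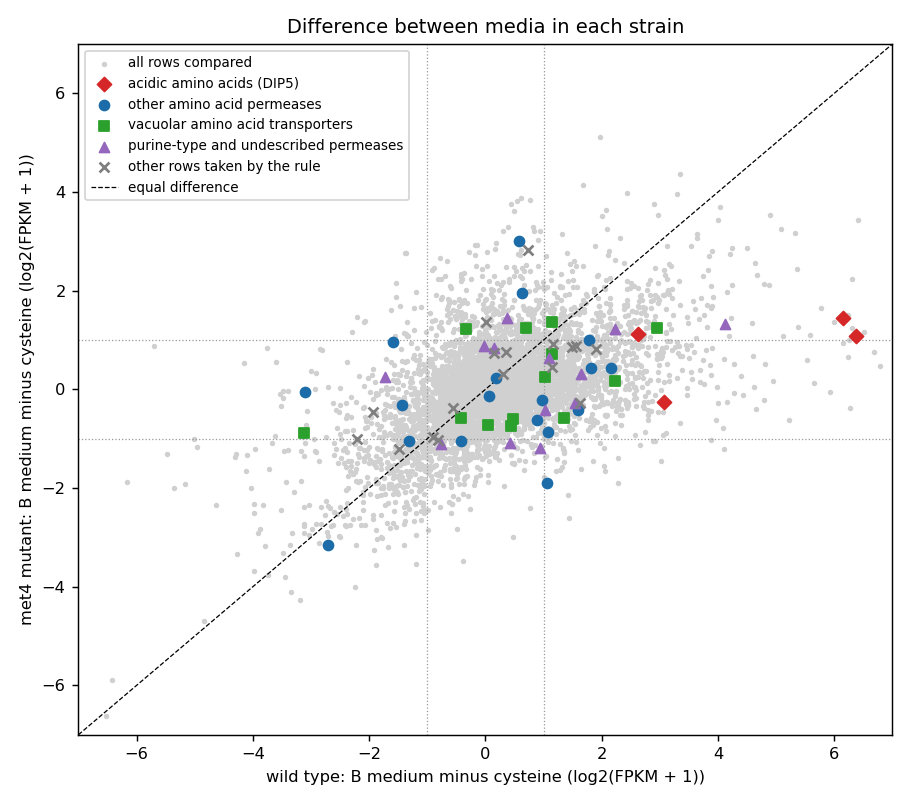
Difference of log2(FPKM + 1) between B medium and cysteine in the wild type (x axis) and in the met4 mutant (y axis) for the members by class and, in grey, for the rows compared, of which 22 lie outside the axes. Dotted lines mark 2-fold and the dashed line equal differences: the DIP5 rows lie far to its right, with mutant differences of -0.25 to 1.44 and wild-type differences of 2.63 to 6.37.

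Between the strains in B medium, 12 members were at least 2-fold higher in the mutant and 16 at least 2-fold lower, or 18.5% and 24.6%, against a background of 10.5% and 24.9%. The split was 13 against 11 with the median-of-ratios, upper-quartile and 600-base settings, under which 14.3% to 16.0% of all rows were higher and 17.8% to 19.2% lower. With TPM scaling it was 37 against 4, while 45.5% of all rows were higher and 6.44% lower. The members' median of -0.02 became 0.23 with median-of-ratios and 1.11 with TPM scaling, where the medians of all rows were -0.02 and 0.89. The higher rows were AGP2 HPODL_04823, the GAP1 rows HPODL_01635 and HPODL_00044, CAN1, put4 HPODL_01140, AVT4 HPODL_02812, VBA5, DAL4 HPODL_03774, YI31_SCHPO, YHD5_SCHPO, MAL11 HPODL_02606 and YBT1. With cysteine, 14 members were at least 2-fold higher in the mutant and 0 at least 2-fold lower, or 21.5% and 0%, against a background of 6.85% and 7.41%. With the length trend removed the counts were 12 and 0, against 8.35% and 3.59% of all rows. With a pseudocount of 5 FPKM they were 7 and 0, against 5.09% and 6.40% of all rows. The 14 rows included DIP5 HPODL_00008 and HPODL_03243, AGP2 HPODL_01347, UGA4 HPODL_00267, both YEME_SCHPO rows, DAL5 HPODL_02376, AVT6 HPODL_01317 and YPQ2 HPODL_05264. All 14 were at or below 68.0 FPKM in the wild type with cysteine. YG64_SCHPO HPODL_04365 (68.0 FPKM) and AGP3 HPODL_04884 (33.7 FPKM) stood highest there. The other rows had 11.0 FPKM or less, down to 0.348 FPKM for DAL5 HPODL_02376. No member was at least 2-fold higher in the mutant in both media, against 2.28% of all rows. In 4 members, or 6.15%, the mutant was lower in B medium and higher with cysteine, against 1.31% of all rows. The authors' deposited table marks 0 of the 65 members as different at its threshold of 0.05 in any of the 4 strain pairings it holds. Of all rows, the authors' deposited table marks 13 (0.239%) for the strains in B medium and 57 (1.05%) for the strains with cysteine. For mutant B medium against the wild type with cysteine it marks 13 rows (0.239%), and for the mutant with cysteine against wild-type B medium 11 rows (0.202%).

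**Figure D4:**
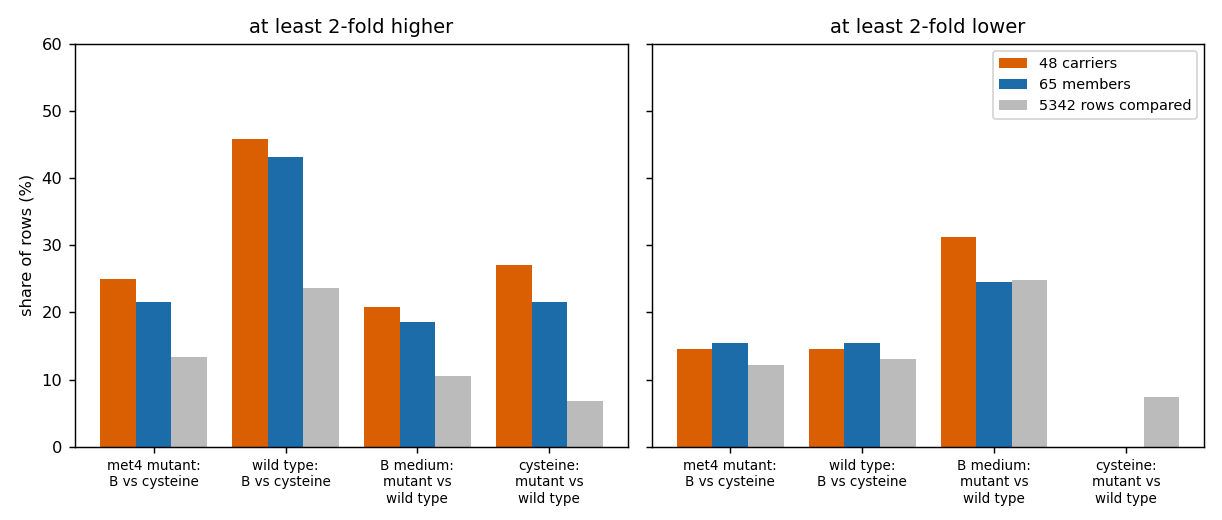
Share of rows at least 2-fold higher (left) and lower (right) in each comparison, for the 48 carriers, the 65 members and the 5342 rows compared. In the comparison of the strains with cysteine, 21.5% of the members were higher and 0% lower in the mutant, against 6.85% and 7.41% of all rows.

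Position in the genome, which the selection did not use, set some members apart from most rows. Of the 65 rows, 16 (24.6%) lay within 30 kb of the first or last row of their chromosome, against 240 of 5342 rows (4.49%). The distance was chosen after the positions were seen. These 16 include DIP5 HPODL_03243, which is the last row of chromosome VII, DIP5 HPODL_00008 and HPODL_04534, ALP1, CAN1, both YEME_SCHPO rows and the DAL5 rows HPODL_04525 and HPODL_00902. Among them, 7 of 16 (43.8%) had a highest library at least 4-fold above the lowest on the log2(FPKM + 1) scale, as did 102 of 224 other rows that near an end (45.5%). Farther in, the shares were 17 of 49 members (34.7%) and 1235 of 5053 other rows (24.4%). DIP5 HPODL_03528, the row of that name farther in, had the smallest wild-type difference of the 4 (2.63). It was close to that of DIP5 HPODL_04534 (3.07), which lies within 30 kb of an end. A link between position and these differences was not tested.

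**Figure D5:**
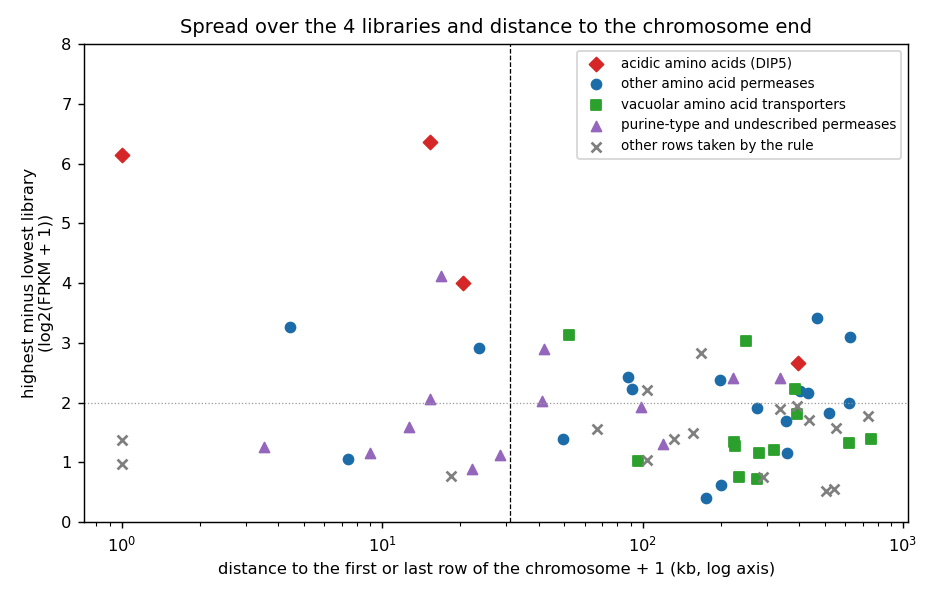
Difference between the highest and lowest library (log2(FPKM + 1)) of each member against its distance in kb to the first or last row of its chromosome (log axis, 1 kb added). The dashed line marks 30 kb and the dotted line 4-fold; the 2 points above 6 are DIP5 HPODL_03243 and HPODL_00008, both left of the dashed line.

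Genes that control or sort permeases in budding yeast were matched by name, which gave 48 rows for 42 of 56 names, 3 of them members. In mutant B medium 6 were at least 2-fold higher and 4 lower (12.5% and 8.33%), with a median of 0.18. In wild-type B medium 11 were higher and 5 lower (22.9% and 10.4%), with a median of 0.10. These shares are near or below the background. The widest differences of the list in mutant B medium were those of 3 BUL rows, adaptors of the ligase Rsp5, named here after their values were seen. They were 5.12 for BUL1 HPODL_03171, 3.89 for BUL1 HPODL_02275 and 3.62 for BUL2 HPODL_03170, against 1.97, 0.60 and 0.50 in the wild type. A further BUL1 row, HPODL_04488, was lower in B medium, at -0.68 in the mutant and -1.60 in the wild type. GAT1, a GATA activator, had 8.66 and 19.6 FPKM in the mutant, against 33.6 and 14.5 FPKM in the wild type. It was thus lower in B medium in the mutant (-1.09) and higher in the wild type (1.16). Both differences of GAT1 lie near 2-fold and were not recomputed under other scalings. AREA, the nitrogen regulator named from Aspergillus, had 164 and 52.4 FPKM in the mutant, against 154 and 73.9 FPKM in the wild type, higher in B medium in both strains. SHR3, which packages amino acid permeases for export from the endoplasmic reticulum, had 411 and 292 FPKM in the mutant, against 626 and 277 FPKM in the wild type. ALY2, an arrestin of permease sorting, had 19.8 and 10.8 FPKM in the mutant, against 8.29 and 66.1 FPKM in the wild type. RSP5, the ligase itself, had 544 and 317 FPKM in the mutant, against 239 and 363 FPKM in the wild type, within 2-fold between the media in both strains.

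Genes for the use of nitrogen from amino acids, purines and urea gave 31 rows for 28 of 41 names. In mutant B medium 5 were at least 2-fold higher and 2 lower (16.1% and 6.45%), with a median of 0.46, and in wild-type B medium 6 were higher and 2 lower (19.4% and 6.45%), with a median of 0.26. All rows stood at 13.3% and 12.1% in the mutant and at 23.6% and 13.0% in the wild type. Between the strains in B medium 7 were higher and 7 lower in the mutant (22.6% each), against 10.5% and 24.9% of all rows. With cysteine 3 were higher and 3 lower in the mutant (9.68% each), against 6.85% and 7.41% of all rows. GLT1, glutamate synthase, had 26.0 and 12.7 FPKM in the mutant, against 163 and 39.7 FPKM in the wild type. GDH1, the biosynthetic glutamate dehydrogenase, had 229 and 426 FPKM in the mutant, against 1938 and 1358 FPKM in the wild type. GLT1 and GDH1 were thus both lower in the mutant in each medium. Beside the wild-type difference of 1.78 for put4 HPODL_01758, the proline oxidation genes PUT1 and PUT2 stood at -0.23 and 0.32. Beside 1.82 for UGA4 HPODL_02953, UGA1 and UGA2 of GABA use stood at 0.23 and 1.26, and beside 1.54 for DAL4 HPODL_02179, DAL1, DAL2 and DAL3 of allantoin use stood at 0.37, 0.39 and -0.02. Each of these permease rows is the one of its name with the largest wild-type difference. The other rows had 0.64 for put4 HPODL_01140, and 1.59 and 0.18 for UGA4 HPODL_00267 and HPODL_00268. For DAL4 HPODL_03774 and HPODL_05056 the values were 0.15 and -0.77.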

How the data were processed

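RNA sequencing gave 1 library for each of 4 groups, from total RNA taken by hot phenol extraction, per the labels' protocols. The deposited FPKM values were made by the authors with TopHat, Cufflinks 2.1.1 and Cuffdiff, named without roles in the submitters' processing notes. Per the file headers, the authors also marked each gene Y or N for each strain pairing. Not given in the sources used here: build, annotation release and strand setting, so overlapping genes cannot be told apart. Coordinates are those of the table; all 65 members have the same position in the reference gene table of assembly Hansenula_2. Depth is unknown. Differences of log2(FPKM + 1) were computed with Python 3.11.15, NumPy 2.4.6 and pandas 2.3.3, for rows averaging 1 FPKM or more, and the scripts were tested on simulated data.

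The members and lists were chosen with earlier results of these data known. Values in all libraries were due for members with a 4-fold difference in any comparison of 2 libraries or a mean of at least 100 FPKM, and for up to 3 examples of each class. A few others were named after their values were seen, to complete a family or a count. Alternatives were other pseudocounts, filters and scalings, removal of the trend with gene length by a running median (100 rows on each side), and 1 row kept per name. The set of 48 carriers and the distance to a chromosome end were chosen after the data were seen.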

Additional observations from a re-analysis of the deposited data

Results flagged for a closer look

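Among the members, 4 had 2-fold differences of opposite sign in the strains or in the media, and the contrast between the groups was not tested because each group is 1 library. YG64_SCHPO HPODL_04365 was lower in B medium in the mutant and higher in the wild type, and the mutant was lower than the wild type in B medium and higher with cysteine. Its response in the mutant minus that in the wild type was -2.96. The mutant was likewise lower in B medium and higher with cysteine for DIP5 HPODL_00008, with a difference of responses of -5.29, for DIP5 HPODL_03243 (-4.70) and for YEME_SCHPO HPODL_03759 (-2.81). In the wild type with cysteine the last 3 rows had 1.18, 3.35 and 1.39 FPKM, where the added pseudocount weighs most. The strain differences in B medium of YG64_SCHPO HPODL_04365 (-1.82) and YEME_SCHPO HPODL_03759 (-1.65) were as small as -0.64 and -0.52 under rescaling. Each stayed 2-fold under 4 of 5 settings that rescale the libraries or remove the length trend. The difference of YG64_SCHPO HPODL_04365 with cysteine (1.14) likewise stayed 2-fold under 4 of 5, with a lowest value of 0.97. Its wild-type difference between the media (1.05) stayed 2-fold under 0 of 5, with a lowest value of 0.58.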

How the results depend on the processing

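No paired analysis was possible because each group holds 1 library. Of the counts of members recomputed under other settings, 93 stayed within 1.5 times the reported count and 17 did not. Among the differences of single members and the members' medians relative to all rows, 2089 moved by at most 1.5 times without crossing 2-fold, 259 did not meet this and 2 turned from a 2-fold difference to the other sign. Counting the 48 carriers alone, a setting chosen after seeing the data, left all 10 counts within 1.5 times. As the carriers make up most of the members, similar counts are largely built in and say little about the shares. TPM scaling gave 37 members higher and 4 lower in the mutant in B medium (all rows 45.5% and 6.44%), 31 higher in the mutant with cysteine (all rows 29.0%), and 18 higher in the wild type's B medium (all rows 14.8%). The 2 turned differences were those of the strains in B medium with TPM scaling, 0.0276 for YCUB_SCHPO HPODL_04883, against -1.16 as deposited, and 0.1569 for UGA4 HPODL_02953, against -1.02. Class medians below 2-fold also changed sign there, such as GABA permeases (-0.38 to 0.80) and vacuolar transporters (-0.27 to 0.89). The median of the amino acid permeases of unknown substrate, past 2-fold as deposited, turned as well (-1.16 to 0.0276). A pseudocount of 5 FPKM gave 9 higher and 5 lower in mutant B medium (all rows 11.2% and 10.7%). It gave 7 higher in the mutant with cysteine (all rows 5.09%). One of 0.1 FPKM gave 1 lower in the mutant with cysteine (all rows 7.82%). A minimum mean of 10 FPKM, which leaves 55 members, gave 9 higher in the mutant with cysteine (all rows 6.32%). In mutant B medium, 6 were lower with upper-quartile scaling (all rows 11.4%) and 5 when genes of 600 bases or more set the scale (all rows 10.7%). With 1 row kept per name, 15 of 41 rows were higher in wild-type B medium (all rows 23.6%) and 8 in mutant B medium (all rows 13.3%). Between the strains in B medium, 7 were higher and 9 lower in the mutant (all rows 10.5% and 24.9%). With cysteine 6 were higher in the mutant (all rows 6.85%), and 13 had a lower response in the mutant (all rows 22.2%). Fewer rows are counted in that setting by construction. The cause of the other changes was not tested. The running median over length is one-sided for 1 member, YBT1, among the 100 longest rows. The absence of replicates and of read counts limits every value.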
